A study of Mus musculus with 6 samples.

Results

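The macrophages given lipopolysaccharide (LPS) were compared with the untreated control macrophages, 2 libraries against 2 of the 6 in the series, across 17113 tested genes. The cells were mouse bone marrow-derived macrophages (BMDM), which are grown from marrow progenitors in culture, and RNA from them was sequenced after poly-A selection. The control libraries are labelled wild type, and the LPS libraries carry the label LPS treatment in the same field, so that no genetic difference between the groups is stated. No mouse strain, age, LPS dose or time of exposure is given, and the labels do not say whether the 2 libraries of a group came from separate animals or cultures. The 2 remaining libraries, from macrophages that received both LPS and HACA (an abbreviation the labels do not spell out), entered the model for its estimate of spread and are not described.

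LPS is a component of the outer membrane of Gram-negative bacteria. Macrophages detect it through TLR4 with its partners MD-2 and CD14. Signals through MyD88 activate NF-kB and AP-1, which drive cytokine genes, and signals through TRIF activate IRF3 and the production of interferon beta, which acts back on the cells. The response is fast, works in waves, and is closed down by inhibitors that belong to the response itself.

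Total counts were between 12529874 and 15379496 in the 4 libraries. Genes with at least 10 counts numbered 16507 and 16241 in control and 14006 and 13883 in LPS. The TMM factors, which scale each library so that most genes do not change, were 1.16 and 1.16 in control and 0.812 and 0.676 in LPS. Levels are TMM-scaled counts relative to the library size (CPM), with control replicates 1 and 2 given before LPS replicates 1 and 2. Over all tested genes the median log2 fold change was −0.05 with TMM and −0.69 when libraries were scaled by their totals, so directions are relative to that choice. A gene was called when its Benjamini-Hochberg adjusted p was under 0.05 in edgeR's quasi-likelihood test. Every called gene named below kept its call in each of the 4 fits that left out 1 library and in each other fit in which it was tested, unless its adjusted p in the fit that ended the call stands beside it. P-values measure the spread between these libraries, which may be technical.

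Of the 17113 genes, 2715 (15.9%) were higher and 2442 (14.3%) lower in LPS, and 5157 (30.1%) were called in either direction. A change of more than 2-fold was called for 1193 genes (6.97%) that rose and 962 (5.62%) that fell. The libraries of the groups did not overlap for 11408 genes (66.7%). Without control replicate 1 the counts were 1190 higher and 1048 lower, and without control replicate 2 they were 1233 and 916. The calls held in all 4 of those fits for 1015 genes that rose and 755 that fell. Scaling by library totals gave 1417 higher and 5100 lower.

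**Figure D1:**
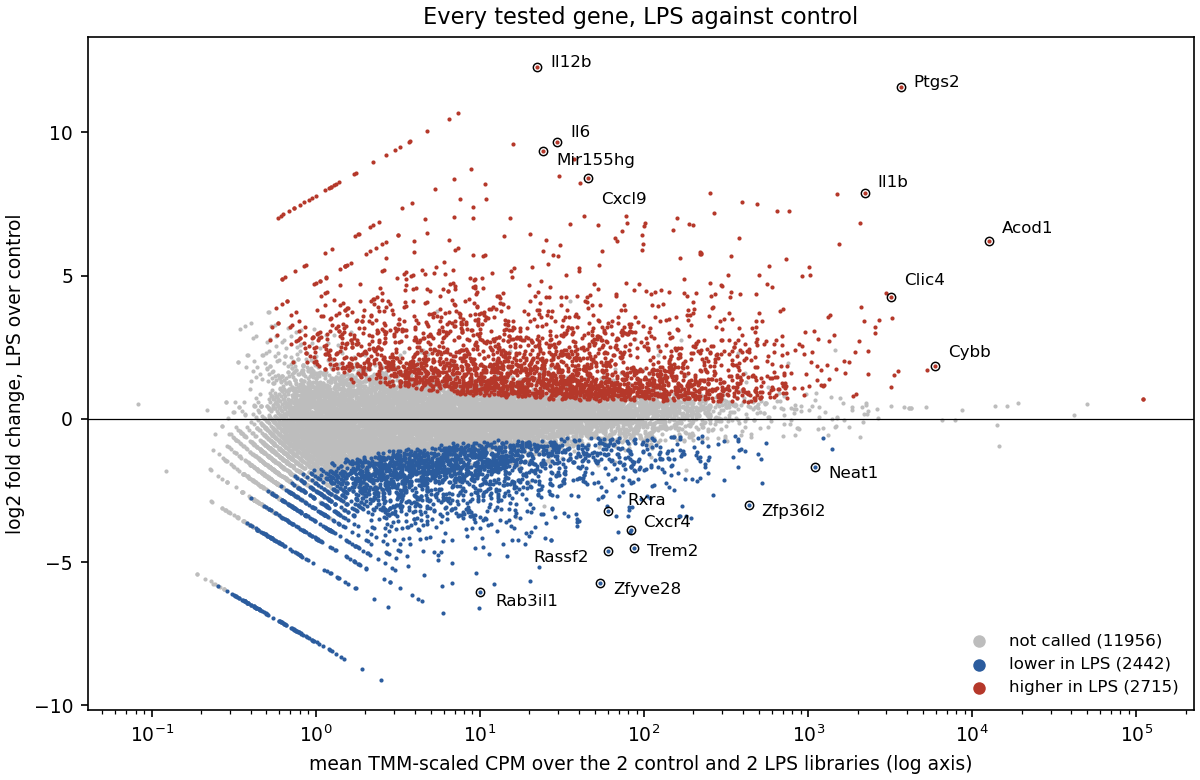
Log2 fold change of every tested gene (LPS over control, vertical axis) against its mean TMM-scaled CPM over the 4 libraries (log axis). Red points are the 2715 genes called higher, blue points the 2442 called lower and grey points the rest. The straight diagonal rows of points are genes with few or no counts in one group, whose fitted fold depends on the model's prior count. The most abundant genes that changed lie above 0.

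The rises and falls sat at different levels of expression, taken in the group with the higher mean. Among the 138 genes that reached a mean of 1000 CPM in their higher group, 82 (59.4%) rose and 3 (2.17%) fell. Among the 8462 genes between 1 and 10 CPM, 652 (7.71%) rose and 1373 (16.2%) fell. A gene could enter a class through its LPS level alone, as Ptgs2, described below, entered that of 1000 CPM and over. Scaling by library totals gave 68 rises and 18 falls in the class of 1000 CPM and over. The 1000 most abundant genes of a library, with the misc_RNA genes left out, held 67.9% and 67.9% of its counts in control and 73.2% and 76.7% in LPS. The misc_RNA genes, among them the 7SL genes, held 24.3% to 29.2% of the counts of a library although poly-A selection was stated.

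**Figure D2:**
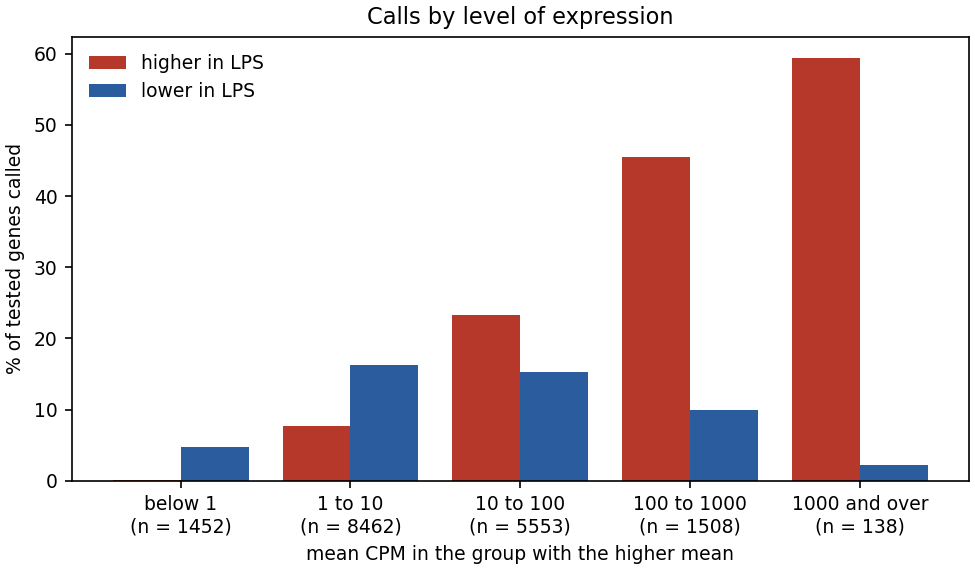
Percent of tested genes called higher (red) or lower (blue) in LPS, by the mean CPM in the group with the higher mean. The share that rose goes from 0.138% in the lowest class to 59.4% in the highest, and the share that fell is 16.2% in the class from 1 to 10 CPM and 2.17% in the highest.

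Of the 12 largest rises among genes that reached 10 CPM, 8 encode secreted cytokines, growth factors or peptides. Ptgs2, the inducible cyclooxygenase that starts prostaglandin synthesis, had 2.07 and 2.71 CPM in control and 6881 and 7729 CPM in LPS (log2 fold change 11.57 ± 0.33, adjusted p = 8.89e-06). Il12b, which encodes the subunit shared by interleukins 12 and 23, had 0 and 0 CPM in control and 36.7 and 52.6 CPM in LPS. The level was at least 463-fold higher than in control (adjusted p = 0.000109). Both genes were off or nearly off in the 2 control libraries, and the LPS libraries lay close to each other.

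Areg, a ligand of the epidermal growth factor receptor, had 0 and 0 CPM in control and 5.02 and 24.5 CPM in LPS. The level was at least 154-fold higher than in control (adjusted p = 0.00566). Csf2, which encodes GM-CSF, had 0 and 0 CPM in control and 8.96 and 16.9 CPM in LPS. The level was at least 134-fold higher than in control (adjusted p = 0.000897). Csf2 lost its call at an adjusted p of 0.0925 with DESeq2. Il6 had 0.125 and 0 CPM in control and 48.8 and 69.1 CPM in LPS, a ratio of 917 (95% interval 253 to 7578, adjusted p = 0.000159). None of these genes passed 0.13 CPM in a control library, while the LPS libraries differed from each other by up to several fold, as for Areg. Edn1, the vasoconstrictor peptide endothelin 1, had 0.0627 and 0 CPM in control and 33.7 and 30.2 CPM in LPS, a ratio of 991 (95% interval 177 to 39195, adjusted p = 0.000356). Adm, the vasodilator peptide adrenomedullin, had 0.0627 and 0 CPM in control and 6.90 and 20.7 CPM in LPS, a ratio of 431 (95% interval 76.8 to 17088, adjusted p = 0.000719).

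Csf3, which encodes the neutrophil growth factor G-CSF, had 0.0627 and 0.198 CPM in control and 26.1 and 124 CPM in LPS (log2 fold change 9.09 ± 1.2, adjusted p = 0.004). Csf3 lost its call at an adjusted p of 0.0812 with limma-voom. Cxcl9, a chemokine that acts on CXCR3, had 0.125 and 0.397 CPM in control and 108 and 74.2 CPM in LPS (log2 fold change 8.41 ± 0.53, adjusted p = 0.000127). The transcripts A430072P03Rik and Gm37560, whose roles are not known here, completed the 12 together with the miR-155 host gene described below. A430072P03Rik had 0 and 0.0661 CPM in control and 9.06 and 26.0 CPM in LPS, a ratio of 548 (95% interval 97.7 to 21689, adjusted p = 0.000637). Gm37560 had 0.314 and 0 CPM in control and 36.9 and 83.1 CPM in LPS (log2 fold change 8.47 ± 1.09, adjusted p = 0.00304). Of the 12 genes, 10 were higher in LPS replicate 2 than in LPS replicate 1.

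**Figure D3:**
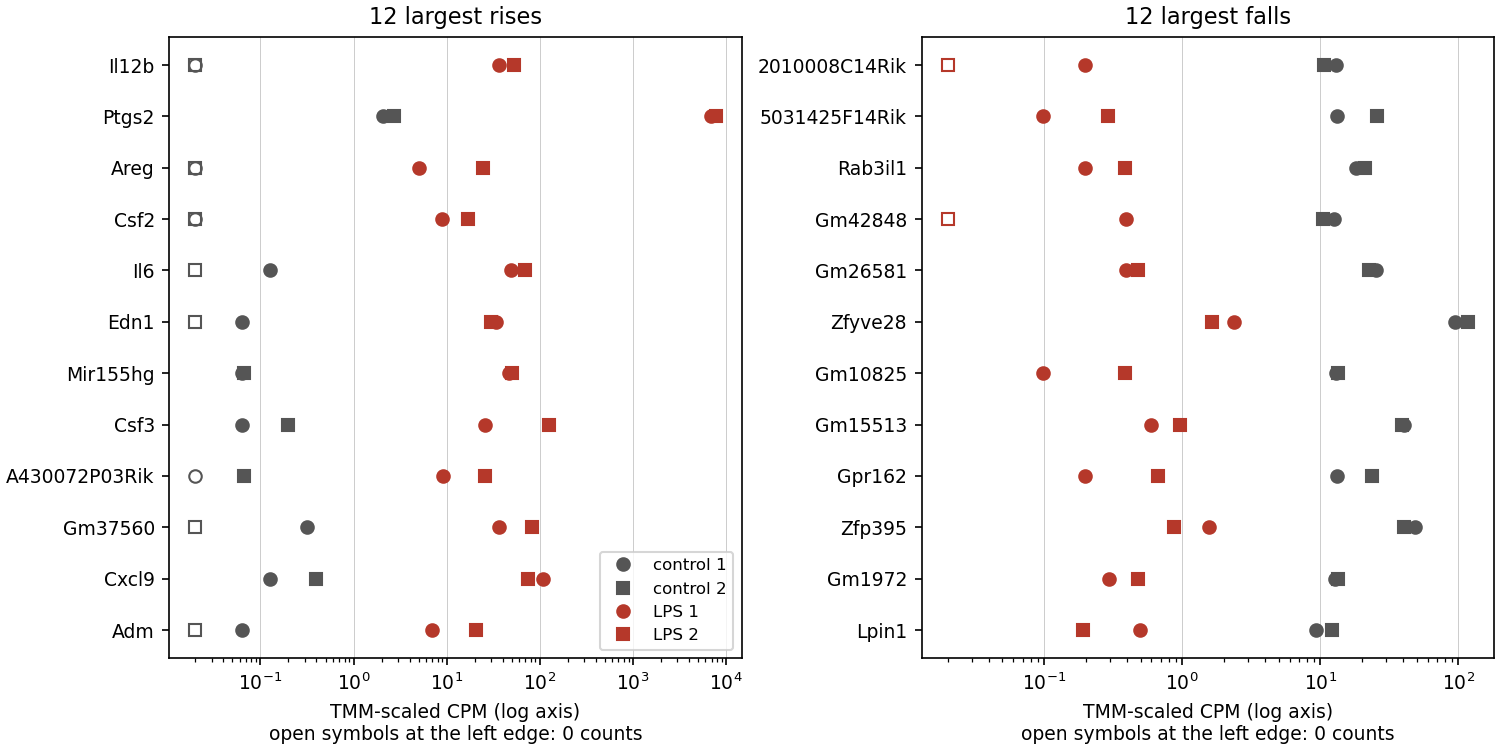
TMM-scaled CPM (log axis) in each library for the 12 largest rises (left) and the 12 largest falls (right) among called genes that reached 10 CPM in the higher group. Grey symbols are control and red symbols LPS, circles replicate 1 and squares replicate 2, and open symbols at the left edge are libraries with 0 counts. No control symbol overlaps an LPS symbol of the same gene, which was a condition for choosing these genes.

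The largest rises among genes that reached 100 CPM, after those 12, were Il1b, Il1a, Ccl4, Ccl5, Cd69, Tnf, Bcl2a1d and Bcl2a1a. Il1b, a cytokine cleaved by caspase 1 before release, had 13.9 and 23 CPM in control and 1894 and 6921 CPM in LPS (log2 fold change 7.90 ± 0.93, adjusted p = 0.00349). Il1a, its neighbour on chromosome 2 and a ligand of the same receptor, had 1.38 and 2.84 CPM in control and 208 and 792 CPM in LPS (log2 fold change 7.89 ± 0.94, adjusted p = 0.00304). The LPS libraries of both interleukin 1 genes were far apart, with replicate 2 above replicate 1, yet both stayed far above control. Cd69, an early activation lectin, went the other way within LPS, with 6.65 and 4.10 CPM in control and 1265 and 675 CPM in LPS (log2 fold change 7.49 ± 0.47, adjusted p = 0.000127). Ccl4 had 13.4 and 12.9 CPM in control and 2650.0 and 3357 CPM in LPS (log2 fold change 7.84 ± 0.35, adjusted p = 7.90e-05). Ccl5 had 1.94 and 6.22 CPM in control and 681 and 886 CPM in LPS (log2 fold change 7.58 ± 0.61, adjusted p = 0.000344). Both encode CC chemokines. Tnf had 7.47 and 12.3 CPM in control and 998 and 2046 CPM in LPS (log2 fold change 7.27 ± 0.50, adjusted p = 0.000159). The survival genes Bcl2a1d (7.24 ± 0.56) and Bcl2a1a (7.18 ± 0.58) are near copies of each other, so their separate values are uncertain.

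By CPM gained, the leading protein-coding gene was Acod1, the enzyme that makes itaconate from a Krebs cycle intermediate. It had 240.1 and 441 CPM in control and 20481 and 29355 CPM in LPS (log2 fold change 6.19 ± 0.40, adjusted p = 0.000138). Cybb, the catalytic subunit of the phagocyte NADPH oxidase, had 2063 and 3122 CPM in control and 8461 and 10144 CPM in LPS (log2 fold change 1.84 ± 0.31, adjusted p = 0.00377). Clic4, a chloride intracellular channel protein, had 313 and 327 CPM in control and 4821 and 7417 CPM in LPS (log2 fold change 4.26 ± 0.27, adjusted p = 0.000127). All 3 were already well expressed in control, and every LPS library was above every control library. The groups did not overlap for 66.7% of all tested genes. The 7SL RNA genes Rn7s1 and Rn7s2, which are copies of each other, gained more CPM with a smaller fold change (log2 fold change 0.68 ± 0.22, adjusted p = 0.0473 for Rn7s1). Rn7s1 lost its call at an adjusted p of 0.939 under library-total scaling, 0.139 with the stricter filter, 0.109 with only the control and LPS libraries in the fit, 0.247 without control replicate 1, 0.194 without control replicate 2 and 0.0826 without LPS replicate 2. Rn7s2 had the same fold change and lost its call in the same fits.

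Of the genes that a textbook account of this response names, Cxcl10, a CXCR3 ligand induced by interferon, had 1.38 and 0.860 CPM in control and 189 and 121 CPM in LPS (log2 fold change 7.10 ± 0.39, adjusted p = 9.70e-05). Nos2, the inducible nitric oxide synthase, had 0.314 and 0.198 CPM in control and 96.1 and 65.8 CPM in LPS (log2 fold change 8.25 ± 0.49, adjusted p = 0.000106). The LPS receptor gene Tlr4 had 158 and 151 CPM in control and 133 and 112 CPM in LPS, a log2 fold change of −0.33 ± 0.20 that was not called (adjusted p = 0.249). Its LPS levels lay below both control levels without passing the test, which it passed under library totals (log2 fold change −0.96, adjusted p = 0.0175).

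Mir155hg, the primary transcript of the microRNA miR-155, led the non-coding genes that reached 5 CPM. It had 0.0627 and 0.0661 CPM in control and 46.2 and 50.4 CPM in LPS, a ratio of 750.3 (95% interval 207 to 6204, adjusted p = 7.90e-05). The 2 libraries of each group lay close together. The mature strands that this transcript yields are given from RefSeq (GRCm38.p6) to show the seed, bases 2 to 8 in capitals, and poly-A libraries measured the host transcript, not these strands.
mmu-miR-155-5p: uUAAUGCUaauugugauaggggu
mmu-miR-155-3p: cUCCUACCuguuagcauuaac
The 5p strand lies at chr16:84714143-84714165 on the + strand and the 3p strand at chr16:84714182-84714202. Ptgs2os, a transcript antisense to Ptgs2, had 0 and 0 CPM in control and 5.91 and 4.72 CPM in LPS. The level was at least 55.0-fold higher than in control (adjusted p = 0.00215). The sources used here do not say that counting used strand, and without strand reads of Ptgs2os and Ptgs2 cannot be told apart where they overlap.

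A set of 31 genes had 0 counts in both control libraries and at least 10 in each LPS library, and 79 showed the reverse. These are raw counts, and at an equal TMM-scaled level a gene had more of them in a control library than in an LPS library. Minimums of 5 and 20 counts gave 59 and 14 genes seen in LPS alone, and 220 and 23 seen in control alone. The genes named next were chosen after their values were seen. Besides Il12b, Areg and Csf2, the genes seen in LPS alone included Sh2d4a, an SH2 domain protein, at least 67.6-fold higher, Tnnt2, cardiac troponin T, at least 63.5-fold higher, and Bmper, a secreted regulator of BMPs, at least 25.7-fold higher. Genes seen in control alone included Tatdn3, a TatD-type nuclease, at least 33.9-fold lower in LPS, Engase, a cytosolic glycosidase that trims free N-glycans, at least 26.0-fold lower, and Fcgrt, the neonatal Fc receptor that recycles IgG, at least 11-fold lower.

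Promoter sequences are shown for the leading rises and falls, because the data bear on genes that moved together, from 250 bases before to 50 bases after the RefSeq start (GRCm38.p6, 5′ to 3′ on the gene's strand). Matches to the motifs searched are in capitals. The first 6 are rises and the last 2 are the largest falls with an entry in the promoter table.
Il12b (chr11:44399813-44400112, + strand): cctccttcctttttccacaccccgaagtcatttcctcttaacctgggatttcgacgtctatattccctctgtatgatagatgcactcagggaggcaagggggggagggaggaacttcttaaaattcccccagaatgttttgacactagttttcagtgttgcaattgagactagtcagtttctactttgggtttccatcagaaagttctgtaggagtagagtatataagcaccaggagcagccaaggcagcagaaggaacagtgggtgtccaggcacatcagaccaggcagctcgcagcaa
Ptgs2 (chr1:150099781-150100080, + strand): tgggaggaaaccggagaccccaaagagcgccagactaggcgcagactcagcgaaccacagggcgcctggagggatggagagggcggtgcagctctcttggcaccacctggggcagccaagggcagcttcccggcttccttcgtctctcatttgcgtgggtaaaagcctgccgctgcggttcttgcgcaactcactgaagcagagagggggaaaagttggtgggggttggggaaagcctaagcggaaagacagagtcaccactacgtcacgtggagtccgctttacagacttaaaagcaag
Areg (chr5:91139349-91139648, + strand): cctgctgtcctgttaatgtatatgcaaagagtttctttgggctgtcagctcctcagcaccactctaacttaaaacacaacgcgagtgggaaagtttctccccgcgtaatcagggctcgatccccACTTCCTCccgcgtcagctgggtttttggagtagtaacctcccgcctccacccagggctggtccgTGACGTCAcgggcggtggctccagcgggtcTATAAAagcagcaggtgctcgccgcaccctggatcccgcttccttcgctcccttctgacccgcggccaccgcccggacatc
Csf2 (chr11:54249850-54250149, - strand): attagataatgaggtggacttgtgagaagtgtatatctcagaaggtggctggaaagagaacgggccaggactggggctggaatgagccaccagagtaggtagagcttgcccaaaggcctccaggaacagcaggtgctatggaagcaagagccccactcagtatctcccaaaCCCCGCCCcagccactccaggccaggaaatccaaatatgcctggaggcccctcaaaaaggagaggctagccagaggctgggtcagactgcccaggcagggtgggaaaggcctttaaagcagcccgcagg
Il1b (chr2:129371090-129371389, - strand): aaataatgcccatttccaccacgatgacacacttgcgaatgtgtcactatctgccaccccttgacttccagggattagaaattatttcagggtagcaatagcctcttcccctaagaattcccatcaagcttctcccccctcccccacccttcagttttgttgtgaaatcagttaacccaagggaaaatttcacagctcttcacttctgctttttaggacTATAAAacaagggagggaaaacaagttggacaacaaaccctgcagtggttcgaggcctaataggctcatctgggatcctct
Il1a (chr2:129309923-129310222, - strand): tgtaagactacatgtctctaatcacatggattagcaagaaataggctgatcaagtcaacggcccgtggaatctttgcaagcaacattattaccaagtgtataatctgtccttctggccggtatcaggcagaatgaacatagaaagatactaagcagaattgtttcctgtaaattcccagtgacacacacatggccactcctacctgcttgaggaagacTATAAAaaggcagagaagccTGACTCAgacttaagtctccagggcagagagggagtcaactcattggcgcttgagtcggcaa
5031425F14Rik (chr2:166447201-166447500, + strand): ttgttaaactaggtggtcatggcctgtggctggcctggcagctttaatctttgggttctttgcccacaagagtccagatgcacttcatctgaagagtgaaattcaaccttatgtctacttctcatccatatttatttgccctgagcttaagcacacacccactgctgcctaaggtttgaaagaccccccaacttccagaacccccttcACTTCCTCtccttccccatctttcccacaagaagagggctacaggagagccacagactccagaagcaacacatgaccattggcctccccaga
Rab3il1 (chr19:10017944-10018243, + strand): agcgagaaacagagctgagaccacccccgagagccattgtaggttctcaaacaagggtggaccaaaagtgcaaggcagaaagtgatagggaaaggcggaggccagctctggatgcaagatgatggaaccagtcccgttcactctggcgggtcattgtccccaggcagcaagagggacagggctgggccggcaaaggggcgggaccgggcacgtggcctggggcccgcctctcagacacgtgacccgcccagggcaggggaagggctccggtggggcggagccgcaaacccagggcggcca
Within this window the Areg promoter held a cAMP response element (TGACGTCA), a PU.1 core (GAGGAAGT, read on the other strand) and a TATA box (TATAAA). The Csf2 promoter held an SP/KLF box (GGGCGGGG, on the other strand). Il1b held a TATA box and Il1a a TATA box and an AP-1 site (TGANTCA). The other motifs searched were the gamma-activated site (TTCNNNGAA), the C/EBP-ATF site (TGATGNAAT), the CLEAR element core (TCACGTGA), an ETS core repeat (ACTTCCGG), the interferon-stimulated response element (GAAA, any 2 bases, GAAA) and NF-kB motifs in 2 spellings (GGGA or GGGG, any 2 bases, TTCC). Both strands were searched, and a base could belong to matches of more than 1 motif. Il12b and Ptgs2 held none of the 12 motifs, which says only that these letters are not in the window. Rab3il1 has 5 promoter entries, of which the first is shown.

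Promoters of Il6, Cxcl10 and Isg15, chosen after their values were seen, are given because they hold NF-kB or interferon elements. Capitals mark matches to any of the 12 motifs.
Il6 (chr5:30012864-30013163, + strand): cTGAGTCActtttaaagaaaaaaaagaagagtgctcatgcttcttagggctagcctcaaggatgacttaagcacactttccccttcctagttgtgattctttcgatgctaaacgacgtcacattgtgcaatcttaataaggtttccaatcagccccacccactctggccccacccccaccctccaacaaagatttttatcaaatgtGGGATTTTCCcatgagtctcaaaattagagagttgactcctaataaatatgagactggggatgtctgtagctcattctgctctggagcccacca
Cxcl10 (chr5:92348840-92349139, - strand): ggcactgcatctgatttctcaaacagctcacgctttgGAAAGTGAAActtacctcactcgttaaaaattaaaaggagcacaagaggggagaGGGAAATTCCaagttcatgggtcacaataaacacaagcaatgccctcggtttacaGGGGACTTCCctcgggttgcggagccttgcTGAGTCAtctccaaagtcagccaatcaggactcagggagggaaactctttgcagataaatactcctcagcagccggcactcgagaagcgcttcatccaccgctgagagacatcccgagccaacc
Isg15 (chr4:156200769-156201068, - strand): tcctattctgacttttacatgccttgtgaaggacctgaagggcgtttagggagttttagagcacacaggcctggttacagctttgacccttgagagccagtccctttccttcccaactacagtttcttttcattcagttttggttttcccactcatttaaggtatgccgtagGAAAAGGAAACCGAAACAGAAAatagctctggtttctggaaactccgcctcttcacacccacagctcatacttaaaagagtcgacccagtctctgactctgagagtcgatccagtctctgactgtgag
Il6 held an NF-kB match that starts 44 bases before the start site and an AP-1 site near the far end of the window. Cxcl10 held NF-kB matches from 159 and 104 bases before, an interferon-stimulated response element from 213 and an AP-1 site from 74. Isg15 held 3 matches to the interferon element, which start 78, 72 and 66 bases before the start site and share bases. Isg15, a ubiquitin-like protein induced by interferon, had 18.6 and 20.04 CPM in control and 614 and 641 CPM in LPS (log2 fold change 5.02 ± 0.24, adjusted p = 7.90e-05).

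Of the 847 protein-coding genes that rose by more than 2-fold, 79.1% had an entry in the promoter table, and of the 683 that fell 76.6% had one. Both are under the 80% set for such a check, so the check is void for the gene groups, and the shares describe only the promoters that were found. Motifs were searched on both strands, and shares are given for the 850 promoters of rising genes, the 708 of falling genes, then the promoters of all tested protein-coding genes, then all 32851 promoters. The interferon-stimulated response element was in 9.76%, 2.40%, 3.30% and 3.44%. The first NF-kB spelling was in 2.71%, 0.424%, 1.58% and 1.47%, and the second in 3.29%, 0.565%, 1.71% and 1.47%. AP-1 sites were in 9.88%, 7.49%, 5.24% and 7.81%. TATA boxes were in 11.3%, 6.21%, 7.45% and 13.6%, and gamma-activated sites in 9.53%, 5.79%, 6.80% and 8.30%. The SP/KLF box was in 30.9%, 26.7%, 32.1% and 17.6%. The ETS core repeat was in 3.29%, 4.66%, 8.38% and 3.89%. The other 4 motifs were in 0.706% to 4.47% of promoters of rising genes. No test was made of these shares.

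Some genes that rose lay side by side on a chromosome. Runs of at least 3 neighbouring tested genes that all rose numbered 229, and 181 runs fell together. With protein-coding genes only there were 119 runs that rose. The longest, of 15 genes, covered chromosome 1 from 173350879 to 174044411 (GRCm38), where the p200 family of DNA sensors and interferon-inducible proteins lies. All 15 rose by more than 2-fold, with a median log2 fold change of 3.32.

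Within that run Aim2, the sensor that builds an inflammasome on cytosolic DNA, had 4.70 and 5.29 CPM in control and 36.2 and 13.6 CPM in LPS (log2 fold change 2.31 ± 0.47, adjusted p = 0.00839). Aim2 lost its call at an adjusted p of 0.0745 without control replicate 1 and 0.0638 without control replicate 2. Ifi204 had 67.0 and 113 CPM in control and 958 and 675 CPM in LPS (log2 fold change 3.18 ± 0.32, adjusted p = 0.000476). Ifi205 had 9.72 and 15.7 CPM in control and 646 and 680.1 CPM in LPS (log2 fold change 5.70 ± 0.31, adjusted p = 9.70e-05). Ifi203 had 32.7 and 32.8 CPM in control and 665 and 323 CPM in LPS (log2 fold change 3.92 ± 0.37, adjusted p = 0.000369). Mndal had 10.54 and 15.7 CPM in control and 139 and 51.0 CPM in LPS (log2 fold change 2.86 ± 0.47, adjusted p = 0.00401). Of the 15 genes, 12 were higher in LPS replicate 1 than in LPS replicate 2, against 36.4% of all genes called higher. Neighbours in this family share sequence, and the copy search found 72.8% of the 50-base stretches of Ifi211 in another gene.

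**Figure D4:**
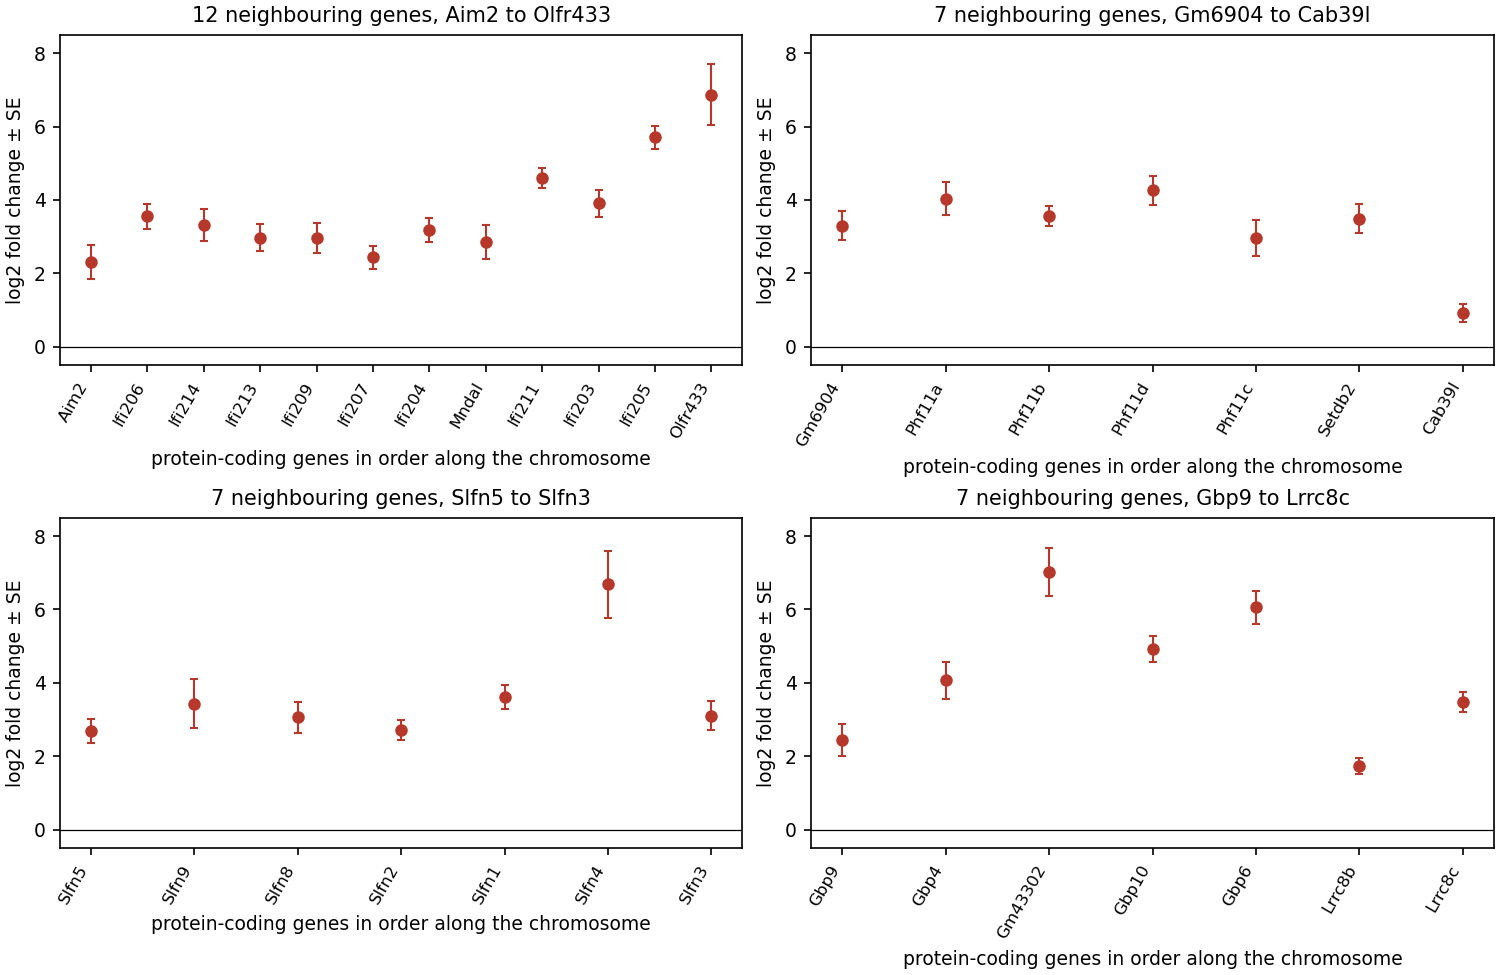
Log2 fold change ± SE of protein-coding neighbours in 4 runs of genes called higher, in their order along the chromosome: 12 from Aim2 to Olfr433, 7 from Gm6904 to Cab39l, 7 from Slfn5 to Slfn3 and 7 from Gbp9 to Lrrc8c. Every gene is above 0, from 0.92 for Cab39l to 7.02 for Gm43302. Runs of 7 genes on chromosomes 17 and 2 are not shown.

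Shorter runs of protein-coding genes held the Schlafen genes on chromosome 11 (7 genes from 82951349 to 83215154, median 3.11), a group from Gm6904 to Cab39l on chromosome 14 (7 genes from 59244441 to 59585764, median 3.49) and guanylate-binding protein genes on chromosome 5 (7 genes from 105077630 to 105613018, median 4.07). The genes named from the runs on chromosomes 14 and 5 were chosen after their values were seen. In the chromosome 14 run, Phf11d, a PHD finger protein, had 4.14 and 2.45 CPM in control and 72.4 and 54.4 CPM in LPS (log2 fold change 4.26 ± 0.39, adjusted p = 0.000351). Setdb2, a histone methyltransferase, had 1.51 and 1.65 CPM in control and 22.9 and 12.9 CPM in LPS (log2 fold change 3.49 ± 0.39, adjusted p = 0.000717). In the chromosome 5 run, Gbp6, an interferon-induced GTPase, had 0.565 and 1.257 CPM in control and 73.9 and 47.7 CPM in LPS (log2 fold change 6.05 ± 0.45, adjusted p = 0.000169). The next longest runs over all gene types were on chromosome 13 from 119690379 to 120100332 (14 genes) and, tied at 12 genes, on chromosome 1 from 85159764 to 85778643 and on chromosome 9 from 88840236 to 89377713. The chromosome 9 run, with a median of 3.95, includes Bcl2a1a. The chromosome 13 run and the chromosome 1 run of 12 genes hold genes that share sequence with each other. In that chromosome 1 run Sp100 had 35.8 and 35 CPM in control and 143 and 100.3 CPM in LPS (log2 fold change 1.78 ± 0.27, adjusted p = 0.00244). Sp110 had 13.5 and 14.7 CPM in control and 89.6 and 79.0 CPM in LPS (log2 fold change 2.58 ± 0.23, adjusted p = 0.000336). Sp100 and Sp110 are nuclear body proteins. In the chromosome 13 run Hmgcs1, an early enzyme of cholesterol synthesis, had 4.58 and 3.24 CPM in control and 32.8 and 21.5 CPM in LPS (log2 fold change 2.79 ± 0.40, adjusted p = 0.00204). The longest run that fell held 9 genes from Fmnl1 to Plekhm1 on chromosome 11, from 103171107 to 103412687, in one stretch that includes antisense genes.

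The 12 largest falls among genes that reached 10 CPM held 5 protein-coding genes and 7 transcripts of other types. Rab3il1, an exchange factor for Rab GTPases, had 18.2 and 21.1 CPM in control and 0.197 and 0.385 CPM in LPS (log2 fold change −6.03 ± 0.42, adjusted p = 0.000157). Zfyve28, an endosomal FYVE domain protein, had 95 and 117 CPM in control and 2.36 and 1.64 CPM in LPS (log2 fold change −5.72 ± 0.31, adjusted p = 9.70e-05). Zfp395, a zinc finger protein, had 49.1 and 40.4 CPM in control and 1.58 and 0.867 CPM in LPS (log2 fold change −5.19 ± 0.42, adjusted p = 0.000217). In each of them both control libraries were far above both LPS libraries. Gpr162, an orphan receptor, had 13.3 and 23.8 CPM in control and 0.197 and 0.674 CPM in LPS (log2 fold change −5.38 ± 0.65, adjusted p = 0.00101). Lpin1, a phosphatidate phosphatase, had 9.35 and 12.2 CPM in control and 0.493 and 0.193 CPM in LPS (log2 fold change −4.94 ± 0.48, adjusted p = 0.000442). The roles of the other 7 are not known here. Their log2 fold changes ran from −5.05 ± 0.45 for Gm1972 to −6.59 ± 0.67 for 5031425F14Rik, and 2010008C14Rik had a ratio of 121 (95% interval 33.3 to 1005, adjusted p = 0.0028) of control to LPS. They include Gm10825, Gm26581 and Gm1972, which share most of their sequence with other genes.

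Among genes that reached 100 CPM, Rassf2, a Ras association domain protein, had 105 and 127 CPM in control and 4.63 and 4.82 CPM in LPS (log2 fold change −4.61 ± 0.25, adjusted p = 9.70e-05). Trem2, a lipid-sensing receptor of tissue macrophages, had 155 and 178 CPM in control and 8.18 and 6.55 CPM in LPS (log2 fold change −4.50 ± 0.26, adjusted p = 0.000105). Tmem86a, a lysoplasmalogenase, had 135 and 174 CPM in control and 10.4 and 9.44 CPM in LPS (log2 fold change −3.96 ± 0.26, adjusted p = 0.000138). For all 3 the control libraries exceeded 100 CPM and the LPS libraries stayed near 10 CPM or below. Slc36a1, a lysosomal amino acid transporter, had 153 and 108 CPM in control and 7.49 and 9.54 CPM in LPS (log2 fold change −3.94 ± 0.35, adjusted p = 0.000319). Cxcr4, the receptor of the homing chemokine CXCL12, had 162 and 147 CPM in control and 10.6 and 10.4999 CPM in LPS (log2 fold change −3.87 ± 0.25, adjusted p = 0.000138). Pdxk, which makes the active form of vitamin B6, had 358 and 351 CPM in control and 38.7 and 26.1 CPM in LPS (log2 fold change −3.45 ± 0.27, adjusted p = 0.000201). Arl4c, a small GTPase, had 343 and 313 CPM in control and 23.7 and 38.5 CPM in LPS (log2 fold change −3.40 ± 0.31, adjusted p = 0.000345).

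By CPM lost, Neat1, the long non-coding RNA that scaffolds paraspeckles, led with 1794 and 1577 CPM in control and 446 and 612 CPM in LPS (log2 fold change −1.67 ± 0.22, adjusted p = 0.00151). Irf2bp2, a corepressor that binds IRF2, had 809 and 923 CPM in control and 148 and 219.7 CPM in LPS (log2 fold change −2.24 ± 0.28, adjusted p = 0.00113). Zfp36l2, which promotes decay of AU-rich messages, had 771 and 772 CPM in control and 100.1 and 94.1 CPM in LPS (log2 fold change −2.99 ± 0.20, adjusted p = 0.000146). The transcription factor gene Maf had 700.3 and 806 CPM in control and 310.4 and 255 CPM in LPS (log2 fold change −1.41 ± 0.21, adjusted p = 0.00217). These 4 were abundant in control and remained well expressed in LPS. The scavenger receptor Stab1 had 1934 and 1842 CPM in control and 979 and 839 CPM in LPS (log2 fold change −1.05 ± 0.19, adjusted p = 0.00578). Stab1 lost its call at an adjusted p of 0.0533 without control replicate 1. Cd93, a C-type lectin-like receptor, had 1571 and 1460.4 CPM in control and 1065 and 843 CPM in LPS (log2 fold change −0.67 ± 0.20, adjusted p = 0.0371). Cd93 lost its call at an adjusted p of 0.0689 with only the control and LPS libraries in the fit, 0.189 without control replicate 1, 0.145 without control replicate 2 and 0.084 without LPS replicate 2.

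Gene lists are described next by role, each by how many of its tested members rose and fell, to be read against 15.9% higher and 14.3% lower over all genes, and by its median against −0.05. Counts without a library and under library-total scaling are given in the order higher and lower. Such counts are to be read against those over all genes in the same fit. Library totals gave 1417 of 17113 genes higher and 5100 lower. The counts over all genes without a control library stand above. Fits without 1 library tested 18059 to 18427 genes, so the number of members tested could differ. Of the solute carriers, 204 were tested without control replicate 1, against 195 in the main fit. Where a list's median is printed and leaving out 1 library turned it or moved it by over 1.5 times, the lowest and highest of the 4 medians are given. For such a list the median is also given where library totals, or a filter that keeps genes with 5 CPM in 2 libraries, turned its sign. A list without a printed median was not thereby stable. Leaving out 1 library turned the medians of semaphorins, growth factors, tetraspanins, siglecs with galectins, and polyamine metabolism. Library totals turned the medians of semaphorins, siglecs with galectins, polyamine metabolism and the vesicle fusion proteins. That of the small nucleolar RNA host genes moved by over 1.5 times when 1 library was left out.

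**Figure D5:**
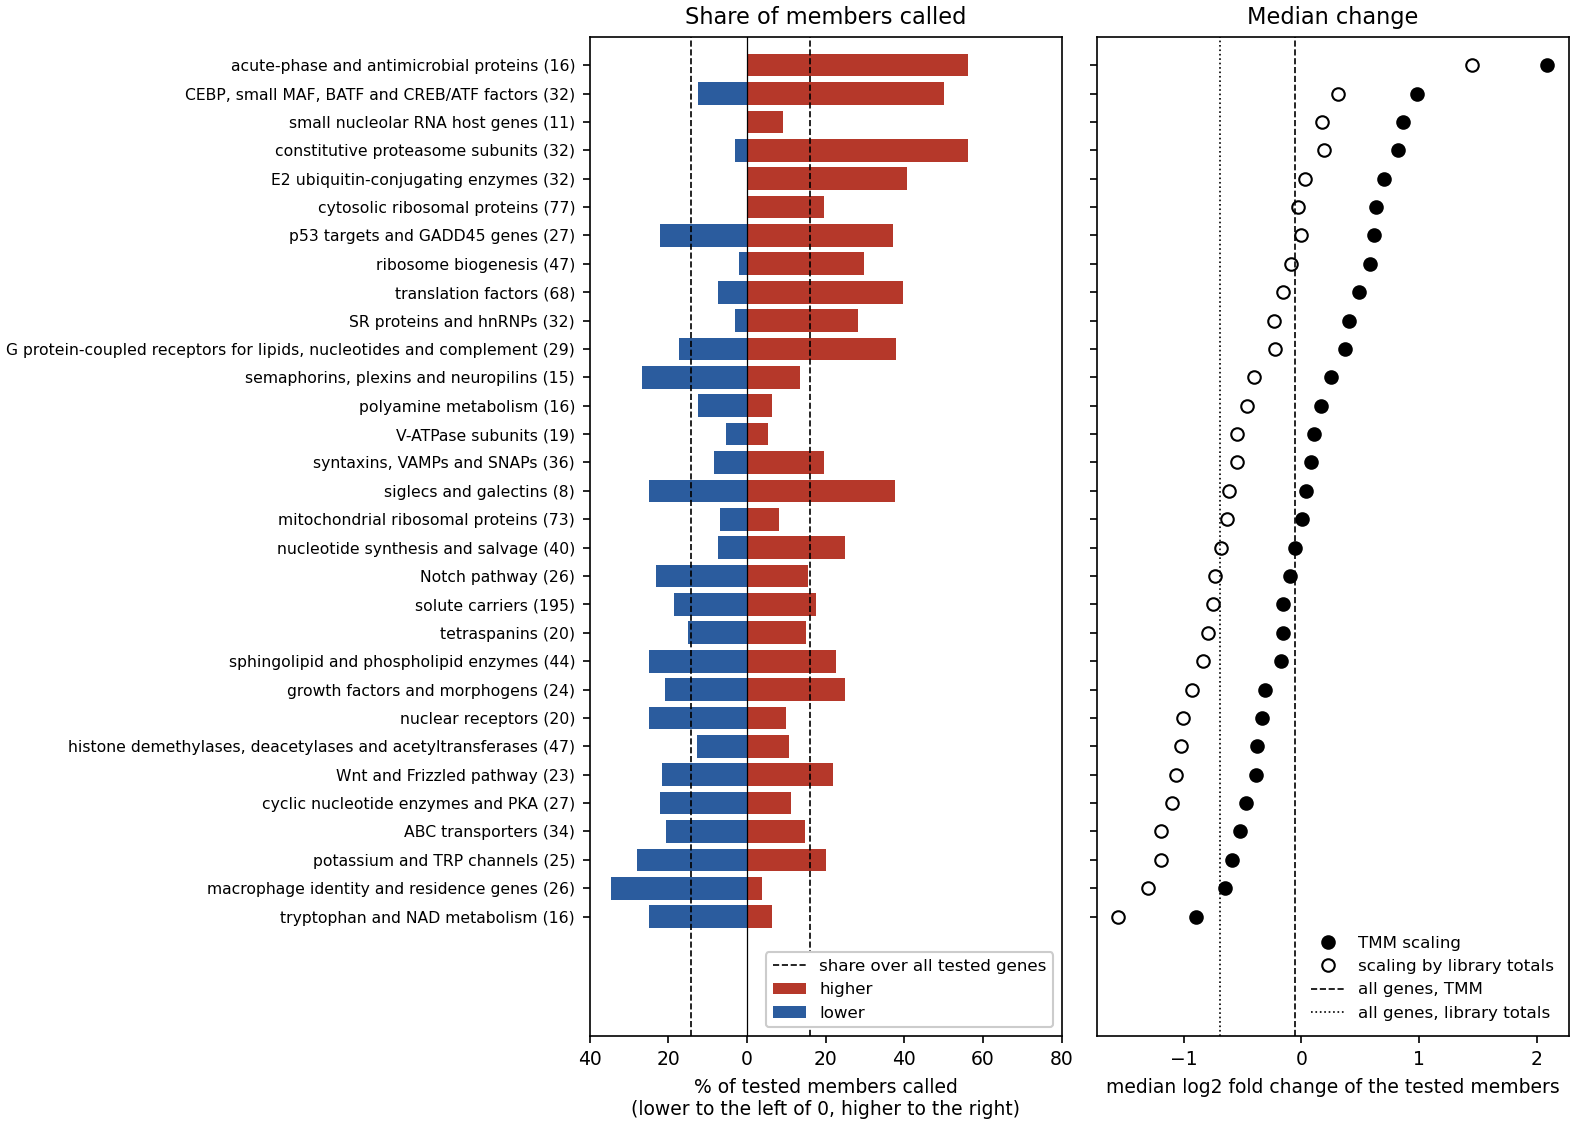
Left, percent of the tested members of each list shown called higher (red, right of 0) or lower (blue, left of 0), with dashed lines at 15.9% and 14.3%, the shares over all tested genes; the number tested is in brackets. Right, the median log2 fold change under TMM scaling (filled) and under library totals (open), with vertical lines at the medians of all genes. Among lists with at least 10 tested members, acute-phase proteins have the highest median under both scalings and the tryptophan and NAD list the lowest.

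Receptors and second messengers moved in both directions. Of 29 tested G protein-coupled receptors for lipids, nucleotides and complement, 11 rose and 5 fell (median 0.37; 5 and 4 with control replicate 1 left out, 6 and 4 with control replicate 2 left out and 7 and 8 under library-total scaling; median from 0.39 without LPS replicate 2 to 0.60 without LPS replicate 1, −0.22 under library totals). Adora2a, an adenosine receptor that dampens inflammation through cyclic AMP, had 1.07 and 3.84 CPM in control and 197 and 435 CPM in LPS (log2 fold change 7.01 ± 0.79, adjusted p = 0.00182). Hcar2, the receptor for niacin and the ketone body beta-hydroxybutyrate, had 4.08 and 3.17 CPM in control and 293 and 495 CPM in LPS (log2 fold change 6.76 ± 0.39, adjusted p = 0.000105). Neither reached 5 CPM in a control library, and both passed 190 CPM in every LPS library. Lpar1, a lysophosphatidic acid receptor, rose (5.2 ± 0.54) and its relative Lpar6 fell (121 and 127 CPM in control and 15.2 and 8.19 CPM in LPS, log2 fold change −3.41 ± 0.32, adjusted p = 0.000391). Gpr183, an oxysterol receptor, fell (53.2 and 45.4 CPM in control and 6.60 and 4.72 CPM in LPS, log2 fold change −3.12 ± 0.36, adjusted p = 0.000823), as did the cannabinoid receptor Cnr2, with a ratio of 57.5 (95% interval 15.7 to 479, adjusted p = 0.00173) of control to LPS.

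Enzymes of cyclic nucleotides were mixed, with 3 of 27 higher and 6 lower (median −0.47; 3 and 3 with control replicate 1 left out, 3 and 2 with control replicate 2 left out and 3 and 12 under library-total scaling; median from −0.96 without LPS replicate 1 to −0.28 without LPS replicate 2). Pde4b, the phosphodiesterase that degrades cyclic AMP in myeloid cells, had 52.6 and 71.0 CPM in control and 443 and 635 CPM in LPS (log2 fold change 3.12 ± 0.32, adjusted p = 0.00055). Pde10a, which degrades cyclic AMP and cyclic GMP, had 0.376 and 0.0661 CPM in control and 4.73 and 9.92 CPM in LPS (log2 fold change 4.98 ± 0.77, adjusted p = 0.00278). The adenylyl cyclase gene Adcy7 had 12.7 and 12.7 CPM in control and 2.56 and 2.41 CPM in LPS (log2 fold change −2.35 ± 0.31, adjusted p = 0.00136). Its relative Adcy9 had 6.84 and 6.22 CPM in control and 2.36 and 1.16 CPM in LPS (log2 fold change −1.89 ± 0.41, adjusted p = 0.011). Adcy9 lost its call at an adjusted p of 0.069 without control replicate 1 and 0.0591 without control replicate 2. Pde3b fell (35.4 and 33.0 CPM in control and 12 and 8.19 CPM in LPS, log2 fold change −1.76 ± 0.29, adjusted p = 0.00358). Pde12, which rose (1.66 ± 0.23), acts on 2′,5′-linked oligoadenylates rather than on cyclic nucleotides.

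In the Notch pathway 4 of 26 genes rose and 6 fell (median −0.10; 2 and 2 with control replicate 1 left out, 3 and 3 with control replicate 2 left out and 2 and 10 under library-total scaling; median from −0.60 without LPS replicate 1 to −0.18 without control replicate 2). The ligand Jag1 had 42.7 and 63.6 CPM in control and 353 and 635 CPM in LPS (log2 fold change 3.22 ± 0.43, adjusted p = 0.00168). The ligand Dll1 had 0.125 and 0 CPM in control and 6.30 and 4.24 CPM in LPS, a ratio of 81.7 (95% interval 22.1 to 683, adjusted p = 0.00122). The Fringe enzymes, which add sugars to Notch and set its choice of ligand, fell. Lfng had 65.5 and 75.0 CPM in control and 5.81 and 8.09 CPM in LPS (log2 fold change −3.33 ± 0.27, adjusted p = 0.000218). Mfng had 14.4 and 11.4 CPM in control and 1.67 and 0.963 CPM in LPS (log2 fold change −3.29 ± 0.37, adjusted p = 0.000777). Of 23 genes of the Wnt and Frizzled pathway, 5 rose and 5 fell (median −0.39; 2 and 2 with control replicate 1 left out, 2 and 2 with control replicate 2 left out, 3 and 5 with LPS replicate 2 left out and 3 and 11 under library-total scaling). The receptor Fzd5 had 15.4 and 15.5 CPM in control and 71.5 and 81.3 CPM in LPS (log2 fold change 2.30 ± 0.22, adjusted p = 0.000442), while Fzd1 had 15.9 and 28.8 CPM in control and 316 and 815 CPM in LPS (log2 fold change 4.66 ± 0.81, adjusted p = 0.0111). Fzd1 lost its call at an adjusted p of 0.066 without control replicate 1, 0.0506 without control replicate 2 and 0.075 without LPS replicate 2. The coreceptors Lrp6 (349.7 and 371 CPM in control and 120.4 and 105 CPM in LPS, log2 fold change −1.68 ± 0.21, adjusted p = 0.00116) and Lrp5 (−3.85 ± 0.45) fell, and Kremen1, a coreceptor for the Wnt inhibitor Dickkopf, rose (72.6 and 55.8 CPM in control and 190.3 and 289.9 CPM in LPS, log2 fold change 1.90 ± 0.28, adjusted p = 0.00228).

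Of 15 semaphorins, plexins and neuropilins, 2 rose and 4 fell (1 and 0 with control replicate 1 left out, 1 and 0 with control replicate 2 left out, 4 and 4 with LPS replicate 1 left out, 3 and 1 with LPS replicate 2 left out and 1 and 5 under library-total scaling), and none of the 4 that fell kept its call without control replicate 1, nor without control replicate 2. Nrp2, a neuropilin, had 185 and 218 CPM in control and 871 and 995 CPM in LPS (log2 fold change 2.21 ± 0.21, adjusted p = 0.000364).

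Among transcription factors, the CEBP, small MAF, BATF and CREB/ATF list leaned upward, with 16 of 32 higher and 4 lower (median 0.98, 0.31 under library totals; 6 and 2 with control replicate 1 left out, 8 and 2 with control replicate 2 left out and 10 and 5 under library-total scaling). Maff, a small MAF protein, had 1.38 and 2.58 CPM in control and 22.0 and 63.8 CPM in LPS (log2 fold change 4.43 ± 0.73, adjusted p = 0.00522). Cebpd had 136 and 111 CPM in control and 907 and 805 CPM in LPS (log2 fold change 2.79 ± 0.22, adjusted p = 0.000217). Batf2 had 0.690 and 0.661 CPM in control and 5.91 and 8.96 CPM in LPS (log2 fold change 3.44 ± 0.49, adjusted p = 0.00189). Cebpa, a factor of myeloid differentiation, had 39.8 and 35.1 CPM in control and 7.09 and 17.8 CPM in LPS (log2 fold change −1.59 ± 0.42, adjusted p = 0.0239). Cebpa lost its call at an adjusted p of 0.112 without control replicate 1 and 0.0896 without control replicate 2. None of these 4 genes had overlapping groups, which was so for 66.7% of all tested genes.

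Of 20 nuclear receptors, 2 rose and 5 fell (median −0.33; 1 and 1 with control replicate 1 left out, 1 and 1 with control replicate 2 left out and 1 and 9 under library-total scaling; median from −1.02 without LPS replicate 2 to −0.39 without control replicate 1). Rxra, the partner of many nuclear receptors, had 102 and 117 CPM in control and 11.4 and 12.3 CPM in LPS (log2 fold change −3.20 ± 0.25, adjusted p = 0.00021). Nr3c1, the glucocorticoid receptor, had 6.71 and 6.75 CPM in control and 21.6 and 25.5 CPM in LPS (log2 fold change 1.81 ± 0.26, adjusted p = 0.002). Pparg, the lipid-activated receptor, had 5.08 and 6.68 CPM in control and 2.17 and 1.16 CPM in LPS (log2 fold change −1.82 ± 0.47, adjusted p = 0.0223). Pparg lost its call at an adjusted p of 0.0674 without control replicate 1, 0.128 without control replicate 2 and 0.0707 without LPS replicate 2. Histone demethylases, deacetylases and acetyltransferases had 5 of 47 higher (10.6%) and 6 lower (12.8%), both shares below those over all genes. Their median was −0.38, against −0.05 over all genes. Library totals gave 1 higher and 23 lower and a median of −1.02, against −0.69 over all genes. Without 1 library the median ran from −0.33 without LPS replicate 1 to −0.28 without control replicate 2. Fewer members were called when a control library was left out. Hdac5 had 14.5 and 16.8 CPM in control and 1.97 and 2.5 CPM in LPS (log2 fold change −2.80 ± 0.30, adjusted p = 0.00067). The mitochondrial sirtuin genes Sirt3 (−3.37 ± 0.37) and Sirt4 (−3.22 ± 0.64) fell, although their products act in mitochondria and not on histones. Kdm6b, an H3K27 demethylase, had 30.05 and 34.7 CPM in control and 69.2 and 288 CPM in LPS, far apart within LPS (log2 fold change 2.46 ± 0.70, adjusted p = 0.045). Kdm6b lost its call at an adjusted p of 0.0505 under library-total scaling, 0.104 with limma-voom, 0.197 without control replicate 1, 0.174 without control replicate 2 and 0.0573 without LPS replicate 2.

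Of 27 p53 targets and GADD45 genes, 10 rose and 6 fell (median 0.61, at 0 to the second decimal under library totals; 8 and 3 with control replicate 1 left out, 6 and 3 with control replicate 2 left out and 9 and 7 under library-total scaling; median from 0.59 without LPS replicate 1 to 1.06 without control replicate 1). The stress genes Gadd45b (8.41 and 12.2 CPM in control and 152 and 292 CPM in LPS, log2 fold change 4.43 ± 0.39, adjusted p = 0.000319), Gadd45a (3.36 ± 0.45) and Plk2, a polo-like kinase (26.1 and 34.2 CPM in control and 437 and 856 CPM in LPS, log2 fold change 4.42 ± 0.38, adjusted p = 0.000288), rose. Sesn1, an inhibitor of mTORC1, had 30.4 and 27.1 CPM in control and 5.02 and 7.51 CPM in LPS (log2 fold change −2.19 ± 0.32, adjusted p = 0.0021). The DNA repair gene Xpc had 24.7 and 21.6 CPM in control and 4.33 and 6.74 CPM in LPS (log2 fold change −2.06 ± 0.34, adjusted p = 0.00387). Members of the list thus moved in both directions.

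Acute-phase and antimicrobial proteins had a median of 2.09 (1.45 under library totals), with 9 of 16 higher and 0 lower (5 and 0 with control replicate 1 left out, 6 and 0 with control replicate 2 left out, 5 and 1 with LPS replicate 2 left out and 8 and 1 under library-total scaling). Lcn2, which withholds iron from bacteria, had 0.314 and 0.132 CPM in control and 9.85 and 19.1 CPM in LPS (log2 fold change 5.95 ± 0.64, adjusted p = 0.000649). Steap4, a metalloreductase, had 0.0627 and 0 CPM in control and 3.84 and 3.37 CPM in LPS, a ratio of 112 (95% interval 19.5 to 4481, adjusted p = 0.00261). Saa3, a serum amyloid A protein, had 12.8 and 42.9 CPM in control and 674 and 1579 CPM in LPS (log2 fold change 5.34 ± 0.86, adjusted p = 0.00928). Saa3 lost its call at an adjusted p of 0.0805 without LPS replicate 2. Growth factors and morphogens were mixed, with 6 of 24 higher and 5 lower (4 and 1 with control replicate 1 left out, 6 and 1 with control replicate 2 left out, 6 and 2 with LPS replicate 2 left out and 6 and 9 under library-total scaling). Inhba, the activin A subunit, had 1.57 and 0.198 CPM in control and 18.1 and 14.4 CPM in LPS (log2 fold change 4.17 ± 0.71, adjusted p = 0.0044). Bmp1, a procollagen protease, had 0.0627 and 0 CPM in control and 1.77 and 5.39 CPM in LPS, a ratio of 112 (95% interval 19.5 to 4481, adjusted p = 0.00515). Vegfa, the vessel growth factor, had 7.59 and 14.7 CPM in control and 1.18 and 2.5 CPM in LPS (log2 fold change −2.59 ± 0.74, adjusted p = 0.0352). Vegfa lost its call at an adjusted p of 0.0556 without control replicate 1, 0.164 without control replicate 2, 0.234 without LPS replicate 1 and 0.153 without LPS replicate 2.

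Genes of macrophage identity and residence fell more often than they rose, with 1 of 26 higher and 9 lower (median −0.65, −1.30 under library totals; 0 and 5 with control replicate 1 left out, 0 and 5 with control replicate 2 left out and 0 and 15 under library-total scaling; median from −0.95 without LPS replicate 2 to −0.32 without LPS replicate 1). Trem2, above, was joined by Selenop, a selenium carrier protein, with 22.7 and 30.03 CPM in control and 1.48 and 1.06 CPM in LPS (log2 fold change −4.37 ± 0.34, adjusted p = 0.000201). In bulk RNA, fewer cells of a kind and less RNA per cell cannot be told apart. Pf4, platelet factor 4, had 9.91 and 7.54 CPM in control and 18.9 and 31.2 CPM in LPS (log2 fold change 1.52 ± 0.33, adjusted p = 0.0109). Pf4 lost its call at an adjusted p of 0.0535 under library-total scaling, 0.0567 without control replicate 1 and 0.104 without control replicate 2. Of general macrophage genes, chosen as a check of the cell label, Lyz2, lysozyme M, lay between 38740 and 47787 CPM in all 4 libraries, Spi1, which encodes PU.1, had 325 and 320.2 CPM in control and 994 and 1320.3 CPM in LPS, and Cd14, the LPS coreceptor, had 331 and 419.7 CPM in control and 2785 and 5262 CPM in LPS (log2 fold change 3.42 ± 0.35, adjusted p = 0.00055). Adgre1, which encodes F4/80, was under 1 CPM in every library, and few of its exonic bases belong to a single transcript.

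Tetraspanins and siglecs with galectins had 3 higher and 3 lower of 20 (1 and 1 with control replicate 1 left out, 1 and 1 with control replicate 2 left out and 1 and 7 under library-total scaling) and 3 and 2 of 8 (1 and 0 with control replicate 1 left out, 2 and 1 with control replicate 2 left out and 2 and 3 under library-total scaling). Tspan3 had 24.5 and 29.6 CPM in control and 99.3 and 141 CPM in LPS (log2 fold change 2.15 ± 0.26, adjusted p = 0.000973). Tspan32 had 21 and 15.5 CPM in control and 3.15 and 2.02 CPM in LPS (log2 fold change −2.82 ± 0.41, adjusted p = 0.00213). Lgals9, galectin 9, had 2.13 and 3.04 CPM in control and 15.4 and 12.5 CPM in LPS (log2 fold change 2.43 ± 0.33, adjusted p = 0.00167). Potassium and TRP channels had 5 higher and 7 lower of 25 (median −0.59; 1 and 4 with control replicate 1 left out, 2 and 2 with control replicate 2 left out and 2 and 9 under library-total scaling; median from −0.43 without control replicate 2 to 0.35 without control replicate 1, 0.02 with the filter of 5 CPM). The voltage-gated channel Kcna3 rose (2.20 and 2.25 CPM in control and 11.4 and 18.6 CPM in LPS, log2 fold change 2.75 ± 0.36, adjusted p = 0.00132), and the calcium-activated channel Kcnn4 fell (13.5 and 12.2 CPM in control and 1.87 and 2.5 CPM in LPS, log2 fold change −2.55 ± 0.31, adjusted p = 0.00103).

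Of 195 solute carriers, 34 rose and 36 fell (median −0.15; 15 and 23 with control replicate 1 left out, 16 and 17 with control replicate 2 left out and 22 and 77 under library-total scaling). Slc7a11, the cystine importer that feeds glutathione synthesis, had 22.9 and 65.3 CPM in control and 1951 and 4119.7 CPM in LPS, with both LPS libraries far above control and a wide spread within both groups (log2 fold change 6.11 ± 1.251, adjusted p = 0.0295). Slc7a11 lost its call at an adjusted p of 0.102 without control replicate 1, 0.0768 without control replicate 2, 0.111 without LPS replicate 1 and 0.156 without LPS replicate 2. Slc1a2, a glutamate transporter, had 0 and 0.132 CPM in control and 5.22 and 13.1 CPM in LPS, a ratio of 143 (95% interval 39.0 to 1189, adjusted p = 0.00753). Slc1a2 lost its call at an adjusted p of 0.0606 without control replicate 1. Slc25a27, a mitochondrial carrier, had 5.71 and 4.03 CPM in control and 0.394 and 0.0963 CPM in LPS (log2 fold change −4.27 ± 0.59, adjusted p = 0.00168). Slc7a15, an amino acid transporter, had a ratio of 89.6 (95% interval 24.6 to 743, adjusted p = 0.000641) of control to LPS. Of 34 ABC transporters, 5 rose and 7 fell (median −0.52; 1 and 6 with control replicate 1 left out, 2 and 5 with control replicate 2 left out and 0 and 14 under library-total scaling; median from −0.58 without control replicate 2 to −0.21 without LPS replicate 2). Abcd2, a peroxisomal importer of very long chain fatty acids, had 55.9 and 47.4 CPM in control and 4.43 and 1.06 CPM in LPS (log2 fold change −4.23 ± 0.67, adjusted p = 0.00439).

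Vesicle fusion proteins (syntaxins, VAMPs and SNAPs) had 7 of 36 higher and 3 lower (3 and 1 with control replicate 1 left out, 2 and 1 with control replicate 2 left out, 7 and 5 with LPS replicate 1 left out and 2 and 8 under library-total scaling). Stx11, a syntaxin of immune cell secretion, had 0.0627 and 0.463 CPM in control and 8.18 and 9.73 CPM in LPS (log2 fold change 5.06 ± 0.63, adjusted p = 0.00114), with under 1% of its exonic bases in a single transcript. Stx6, a syntaxin of the trans-Golgi that serves TNF export, had 54.8 and 54.6 CPM in control and 169.9 and 293 CPM in LPS (log2 fold change 2.08 ± 0.29, adjusted p = 0.00182). Sec22c, an endoplasmic reticulum protein, had 21.8 and 22.8 CPM in control and 4.33 and 3.66 CPM in LPS (log2 fold change −2.47 ± 0.27, adjusted p = 0.000719). Of 19 V-ATPase subunits, which acidify lysosomes, 1 was higher and 1 lower (median 0.11; 0 and 0 with control replicate 1 left out, 0 and 0 with control replicate 2 left out and 0 and 6 under library-total scaling; median from 0.12 without LPS replicate 2 to 0.25 without LPS replicate 1, −0.55 under library totals, −0.06 with the filter of 5 CPM).

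Of 40 genes of nucleotide synthesis and salvage, 10 rose and 3 fell (median −0.05; 4 and 3 with control replicate 1 left out, 4 and 1 with control replicate 2 left out and 5 and 12 under library-total scaling; median from −0.32 without LPS replicate 1 to 0.07 without control replicate 1, 0.18 with the filter of 5 CPM). Cmpk2, a mitochondrial nucleotide kinase, had 8.41 and 7.54 CPM in control and 493 and 371 CPM in LPS (log2 fold change 5.76 ± 0.29, adjusted p = 9.70e-05). Nt5c3, a nucleotidase, had 2.63 and 3.44 CPM in control and 54.6 and 30.4 CPM in LPS (log2 fold change 3.8 ± 0.36, adjusted p = 0.000404). Upp1, uridine phosphorylase, had 0.125 and 0 CPM in control and 2.56 and 3.37 CPM in LPS, a ratio of 46.1 (95% interval 12.2 to 389.6, adjusted p = 0.0042). The mitochondrial kinase gene Dguok fell (12.8 and 18.1 CPM in control and 4.63 and 4.33 CPM in LPS, log2 fold change −1.78 ± 0.30, adjusted p = 0.00382). Of 16 genes of tryptophan and NAD metabolism, 1 rose and 4 fell (median −0.89; 1 and 1 with control replicate 1 left out, 1 and 1 with control replicate 2 left out, 1 and 2 with LPS replicate 2 left out and 1 and 8 under library-total scaling; median from −1.06 without LPS replicate 1 to −0.59 without LPS replicate 2, 0.05 with the filter of 5 CPM). The gene that rose was Nampt, the rate-limiting enzyme of NAD salvage, with 253 and 273 CPM in control and 1225 and 1573 CPM in LPS (log2 fold change 2.41 ± 0.25, adjusted p = 0.000565).

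Sphingolipid and phospholipid enzymes had 10 higher and 11 lower of 44 (median −0.17; 6 and 6 with control replicate 1 left out, 7 and 5 with control replicate 2 left out and 8 and 19 under library-total scaling; median from −0.55 without LPS replicate 2 to 0.18 without LPS replicate 1). Cers6, a ceramide synthase, had 512 and 486 CPM in control and 3939 and 5241 CPM in LPS (log2 fold change 3.20 ± 0.23, adjusted p = 0.000159). Pla2g4a, the cytosolic phospholipase that releases arachidonate for the cyclooxygenases, had 2.57 and 3.51 CPM in control and 26.8 and 15.5 CPM in LPS (log2 fold change 2.80 ± 0.39, adjusted p = 0.00186). Pld4, an endosomal exonuclease of single-stranded nucleic acids, had 67.2 and 77.4 CPM in control and 3.94 and 7.90 CPM in LPS (log2 fold change −3.61 ± 0.36, adjusted p = 0.000511). The lysosomal phospholipase Pla2g15 had 3.14 and 1.98 CPM in control and 0.197 and 0.193 CPM in LPS (log2 fold change −3.66 ± 0.61, adjusted p = 0.00373). Of 16 genes of polyamine metabolism, 1 was higher and 2 lower (0 and 2 with control replicate 1 left out, 0 and 2 with control replicate 2 left out and 0 and 3 under library-total scaling). Those that fell were Paox, a polyamine oxidase (28.9 and 26.3 CPM in control and 2.76 and 2.02 CPM in LPS, log2 fold change −3.52 ± 0.30, adjusted p = 0.000284), and Atp13a2, a lysosomal polyamine exporter (32.7 and 42.0 CPM in control and 1.67 and 2.70 CPM in LPS, log2 fold change −4.09 ± 0.35, adjusted p = 0.000284).

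Lists of protein making and breakdown had medians above that of all genes under both scalings, by little for mitochondrial ribosomal proteins, while their counts of calls depended on the scaling. Library totals lowered the median of all genes from −0.05 to −0.69, and the medians given for these lists are to be read against those values. Of 68 translation factors, 27 rose and 5 fell (median 0.49, −0.15 under library totals; 9 and 2 with control replicate 1 left out, 13 and 3 with control replicate 2 left out and 13 and 11 under library-total scaling). Eif2ak2, the kinase PKR that stops translation on double-stranded RNA, had 72.8 and 76.9 CPM in control and 448 and 284 CPM in LPS (log2 fold change 2.29 ± 0.28, adjusted p = 0.00105). Eef1e1, a scaffold of the tRNA synthetase complex, had 6.52 and 6.75 CPM in control and 30.3 and 29.5 CPM in LPS (log2 fold change 2.17 ± 0.24, adjusted p = 0.000752). Eef2k, which inhibits elongation, had 18.1 and 21.1 CPM in control and 1.77 and 1.73 CPM in LPS (log2 fold change −3.47 ± 0.31, adjusted p = 0.000319). Eif4ebp2, which inhibits cap-dependent initiation, had 336 and 295 CPM in control and 87.2 and 61.4 CPM in LPS (log2 fold change −2.09 ± 0.25, adjusted p = 0.000961). Eif2ak2, Eef2k and Eif4ebp2 are all inhibitors of translation, and 1 of them rose while 2 fell.

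Of 77 cytosolic ribosomal protein genes, 15 rose and 0 fell (median 0.63, −0.03 under library totals; 2 and 0 with control replicate 1 left out, 2 and 0 with control replicate 2 left out and 4 and 1 under library-total scaling; median from 0.41 without LPS replicate 2 to 0.77 without LPS replicate 1). Rps27a, which also encodes a ubiquitin, had 8.85 and 9.85 CPM in control and 26.3 and 31.7 CPM in LPS (log2 fold change 1.63 ± 0.25, adjusted p = 0.00259). Ribosome biogenesis had 14 higher and 1 lower of 47 (median 0.59, −0.09 under library totals; 4 and 0 with control replicate 1 left out, 7 and 0 with control replicate 2 left out and 6 and 4 under library-total scaling). Rrs1, an assembly factor of the large subunit, had 22.5 and 29.4 CPM in control and 174 and 213 CPM in LPS (log2 fold change 2.90 ± 0.27, adjusted p = 0.000357). Ltv1, one of the small subunit, had 15.6 and 20.3 CPM in control and 75.3 and 90.1 CPM in LPS (log2 fold change 2.20 ± 0.27, adjusted p = 0.00115). The RNA helicase Ddx21 had 89.7 and 127 CPM in control and 388 and 471 CPM in LPS (log2 fold change 1.99 ± 0.25, adjusted p = 0.00125). Mitochondrial ribosomal proteins did not lean, with 6 higher and 5 lower of 73 (median 0.01; 2 and 2 with control replicate 1 left out, 2 and 1 with control replicate 2 left out, 5 and 10 with LPS replicate 1 left out and 2 and 17 under library-total scaling; median from −0.19 without LPS replicate 1 to −0.01 without control replicate 1, −0.63 under library totals, −0.14 with the filter of 5 CPM). Mrpl39 rose (26.0 and 24.9 CPM in control and 136 and 107 CPM in LPS, log2 fold change 2.25 ± 0.23, adjusted p = 0.000512) and Mrps35 fell (17.3 and 17.3 CPM in control and 4.83 and 2.70 CPM in LPS, log2 fold change −2.20 ± 0.33, adjusted p = 0.00246).

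Of 32 constitutive proteasome subunits, 18 rose and 1 fell (median 0.82, 0.19 under library totals; 4 and 0 with control replicate 1 left out, 2 and 0 with control replicate 2 left out and 3 and 1 under library-total scaling). Psmb6, the catalytic subunit that interferon-induced Psmb9 replaces, had 15.9 and 14.4 CPM in control and 37.8 and 55.9 CPM in LPS (log2 fold change 1.63 ± 0.27, adjusted p = 0.00387). Psmd7, a lid subunit, had 66.2 and 69.7 CPM in control and 181 and 186 CPM in LPS (log2 fold change 1.43 ± 0.20, adjusted p = 0.00169). Of 32 E2 ubiquitin-conjugating enzymes, 13 rose and 0 fell (median 0.70, 0.03 under library totals; 3 and 0 with control replicate 1 left out, 3 and 0 with control replicate 2 left out and 3 and 2 under library-total scaling; median from 0.46 without LPS replicate 2 to 0.77 without LPS replicate 1). Ube2l6, the E2 for ISG15, had 14.9 and 11 CPM in control and 100.2 and 79.7 CPM in LPS (log2 fold change 2.79 ± 0.29, adjusted p = 0.000568). Ube2e2 had 2.70 and 3.51 CPM in control and 22.6 and 21.3 CPM in LPS (log2 fold change 2.82 ± 0.28, adjusted p = 0.000489). Ube2z had 162 and 141 CPM in control and 363 and 637 CPM in LPS (log2 fold change 1.72 ± 0.29, adjusted p = 0.00381). SR proteins and hnRNPs, which bind pre-messenger RNA, had 9 higher and 1 lower of 32 (median 0.40, −0.23 under library totals; 1 and 1 with control replicate 1 left out, 1 and 0 with control replicate 2 left out and 1 and 4 under library-total scaling; median from 0.25 without control replicate 1 to 0.63 without control replicate 2). Tra2b, a splicing activator, had 51.9 and 70.7 CPM in control and 203 and 201 CPM in LPS (log2 fold change 1.72 ± 0.23, adjusted p = 0.00146). Of 11 host genes of small nucleolar RNAs, the 1 that rose was Zfas1 (5.46 and 7.21 CPM in control and 25.3 and 35.9 CPM in LPS, log2 fold change 2.27 ± 0.30, adjusted p = 0.0014).

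Markers of other cells that a marrow culture could hold were mostly low. None of 7 neutrophil, 7 stromal, 2 erythroid and megakaryocyte and 1 T and NK cell markers that were tested was called. With the replicate number as a block in the model, Camp (log2 fold change 2.27 ± 0.38, adjusted p = 0.00105) and Ngp among the neutrophil markers were called higher, and Col1a1 (stromal) and Cd4 (T and NK) lower. Camp was also called with DESeq2 (adjusted p = 0.0322) and with no filter on low counts (adjusted p = 3.19e-05). The summed level of the 16 stromal markers was 74.2 and 4.89 CPM in control and 49.6 and 7.71 CPM in LPS, higher in replicate 1 of both groups, and 5 to 8 of the 16 were at 0 in a library. The sum of the 14 neutrophil markers was 264 and 126 CPM in control and 250.5 and 124 CPM in LPS, with 3 to 6 at 0 in a library. The sum of the 15 T and NK cell markers was 15.3 and 42.1 CPM in control and 6.11 and 34.4 CPM in LPS, nearly all of it Cd4, with 9 to 12 at 0. Dendritic cell markers had 4 higher and 1 lower of 9, with sums of 248 and 296 CPM in control and 268 and 333 CPM in LPS. Fscn1, the actin bundler of mature dendritic cells, had 0.941 and 0.265 CPM in control and 14.7 and 21.7 CPM in LPS (log2 fold change 4.88 ± 0.57, adjusted p = 0.000882). Xcr1, a chemokine receptor of cross-presenting dendritic cells, had 1.44 and 1.12 CPM in control and 18.7 and 13.6 CPM in LPS (log2 fold change 3.64 ± 0.41, adjusted p = 0.000796). The dendritic cell factor gene Irf8 had 174 and 211 CPM in control and 78.2 and 98.3 CPM in LPS (log2 fold change −1.13 ± 0.23, adjusted p = 0.00862). Irf8 lost its call at an adjusted p of 0.0869 without control replicate 2. Hdc, which makes histamine and was listed as a mast cell marker, had 0.251 and 0.992 CPM in control and 18.3 and 17.2 CPM in LPS (log2 fold change 4.83 ± 0.59, adjusted p = 0.0011), while 8 of the 11 mast cell and basophil markers were at 0 in each LPS library. Ighm, a B cell marker, fell (10.2 and 11.3 CPM in control and 2.86 and 2.70 CPM in LPS, log2 fold change −1.95 ± 0.36, adjusted p = 0.00615). The part of these cells in the results was not tested.

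Some named genes have few exonic bases that belong to a single transcript, or share sequence with other genes. How reads on bases shared by transcripts were counted is not given. Fewer than 30% of exonic bases belong to a single transcript for Adcy7 (12.2%), Adcy9 (13.3%), Aim2 (24.6%), Batf2 (23.6%), Cebpa (18.4%), Cnr2 (8.56%), Cxcl10 (28.9%), Engase (18.8%), Fcgrt (22.0%), Fscn1 (27.4%), Gpr162 (27.3%), Hmgcs1 (28.1%), Il12b (6.56%), Lgals9 (25.8%), Lpar1 (17.5%), Mir155hg (16.7%), Nos2 (24.6%), Nr3c1 (13.5%), Pf4 (29.96%), Pla2g15 (10.3%), Selenop (27.7%), Setdb2 (26.2%), Stx11 (0.927%), Tnf (10.8%), Vegfa (9.76%). A shift between transcripts of these genes and a shift in their level cannot be told apart. More than 25% of 50-base stretches occur in another gene for Bcl2a1a (69.0%), Bcl2a1d (79.5%), Gbp6 (70.7%), Gm1972 (88.5%), Paox (28.5%), Pdxk (39.7%), Rps27a (26.3%), Sp110 (42.3%), so their counts are uncertain.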

How the data were processed

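RNA of the 6 libraries (3 groups of 2) was sequenced, and the authors deposited raw read counts per transcript, per the file headers. The submitters' processing notes name CASAVA, Trim Galore, STAR 2.5.4b, edgeR 3.28.1, DESeq2 1.26.0 and limma, and the builds GRCm38 and GRCh38, with no order. The counting program is not given in the sources used here. Of 142647 transcripts, 141524 matched GENCODE vM21 and were summed to 55263 genes, of which 17113 passed filterByExpr.

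edgeR 4.0.16 (R 4.3.3) was fitted to all 6 libraries with TMM scaling and the group as the only term, with 3 residual degrees of freedom. The quasi-likelihood test was used for calls at a Benjamini-Hochberg adjusted p under 0.05, and glmTreat with a log2 bound of 1 for changes of more than 2-fold. Errors after ± are standard errors of the log2 fold change. Where a group held 0 counts of a gene, 3 counts in that group were assumed and the fold is printed as "at least". For 1 to 3 counts a ratio with an exact 95% interval is given, which covers counting error only. On simulated counts of 16419 genes with a dispersion of 0.1, calls recovered 65% of 4-fold and 4% of 2-fold changes, with 2 false calls. The simulation changed 100 genes at each fold, up and down alike, and held no replicate effect. Its rates need not hold for these data, where 30.1% of genes were called.

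Genes were named by rule: the 12 largest changes per direction at 10 CPM, the next 8 at 100 CPM, the 6 largest gains and losses of CPM, up to 3 called members per direction of each of 39 lists, 3 non-coding genes per direction, and members of the 3 longest runs. The rules at 10 CPM and at 100 CPM and that for non-coding genes took only called genes whose groups did not overlap. Members and lists were chosen with earlier results of these data known. Alternatives were library totals, DESeq2 size factors, DESeq2 1.42.0, limma-voom 3.58.1, other filters, protein-coding genes only, fewer libraries and a replicate block. Some genes and 1 list are not reported here.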

Additional observations from a re-analysis of the deposited data

How the results depend on the processing

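The direction of the counts depended on scaling: library totals gave 1417 genes higher and 5100 lower, and 703 and 2137 by more than 2-fold. Calls by more than 2-fold were 769 and 385 with limma-voom, and DESeq2 gave 519 falls of that size. Leaving out 1 library gave 1190 to 3024 genes higher, 916 to 2817 lower, 507 to 1318 higher by more than 2-fold and 310 to 1263 lower by more than 2-fold; the lowest of each came without a control library. Of the 260 genes that the naming rules chose, 73 lost the call without control replicate 1, 71 without control replicate 2, 31 without LPS replicate 2 and 8 without LPS replicate 1, and 28 under library totals. The text describes 161 genes, for the most part those that kept their calls. Of these, 13 and 12 lost the call without control replicates 1 and 2, and of the 111 chosen genes left undescribed 60 and 59 did. Of 78 counts of list members, 50 and 49 moved by over 1.5 times without control replicates 1 and 2, and 50 under library totals. The cause was not tested. Genes seen in LPS alone were 59 and 14, and in control alone 220 and 23, with minimums of 5 and 20 counts in place of 10. Runs of genes that rose were 119 with protein-coding genes only. Acta2, not called, had log2 fold changes from −1.25 without control replicate 2 to 1.09 without control replicate 1. Cd4, not called, ran from −2.48 without LPS replicate 2 to 0.40 without control replicate 2, with 0.28 without LPS replicate 1.

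With the replicate number as a block, 3506 genes were higher and 3384 lower, 1483 and 1380 by more than 2-fold, and none of the 260 genes lost its call. The block moved 23 of the 78 list counts by over 1.5 times. Camp, Ngp, Col1a1 and Cd4, markers of other cells, were called under the block and not without it in the fit otherwise the same. Across genes, the deviations of same-numbered libraries had a correlation of 0.31 between control and LPS, 0.51 between control and LPS with HACA, and 0.50 between LPS and LPS with HACA. The second principal component, with 18.4% of the variance, was positive for every replicate 1 and negative for every replicate 2. Libraries of 1 number thus deviated together. No label says that a number marks a shared batch, and a comparison holds 2 pairs, so the calls in the text come from the fit without a block. At 2 libraries a group the precision is limited by the number of libraries rather than by counts for abundant genes, and for the 1452 genes under 1 CPM in both groups the median standard error was 0.86.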

Other observations

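Some cell type markers followed the replicate number more closely than the treatment. Col1a2, a collagen chain made by stromal cells, had 23.8 and 1.06 CPM in control replicates 1 and 2 and 19.3 and 1.54 CPM in LPS replicates 1 and 2. Col1a1 had 19.9 and 0.463 CPM in control and 8.57 and 0.385 CPM in LPS. Mmp8, a neutrophil collagenase, had 249 and 76.5 CPM in control and 232 and 51.1 CPM in LPS. In the opposite order, Ngp, a neutrophil granule protein, had 5.77 and 31.1 CPM in control and 9.16 and 48.6 CPM in LPS, and Cd4 had 14.8 and 41.4 CPM in control and 5.02 and 33.8 CPM in LPS. None of these 5 genes was called between LPS and control without a block. With the replicate number as a block, Cd4 was called lower (log2 fold change −0.89 ± 0.30, adjusted p = 0.0395), Col1a1 lower (−1.08 ± 0.35, adjusted p = 0.0325) and Ngp higher (0.65 ± 0.23, adjusted p = 0.0459) in edgeR's quasi-likelihood test. The stated values are levels, and these genes were picked after their values were seen.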
